A study of Mus musculus with 6 samples.

Results

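Egln3 encodes a prolyl hydroxylase, one of the enzymes by which cells sense oxygen. It is 1 row among the 4233 genes of a table of normalised counts from lymphatic endothelial cells of mouse meninges. The gene was chosen by its normalised counts, because it differed between the genotypes in this same table, with reads in every wild-type library and in no 5xFAD library. Its levels are therefore given as a description, with no test. Of 6 further genes of the same pathway that were looked up, 4 are listed (Egln1, Hif1a, Epas1 and Arnt), and Egln2 and Vhl are not analysed here.

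The cells came from male C57BL/6J mice aged 6 months and were sorted as live single cells that lacked CD45 and carried CD31 and podoplanin. The control group was made of non-transgenic littermates (WT), and the other group of hemizygous 5xFAD mice, which deposit amyloid in the brain from transgenes driven by the Thy1 promoter, a promoter used for expression in neurons. There were 3 libraries per genotype, each from the pooled meninges of 10 mice, so a library averages over animals. The RNA was amplified linearly before the libraries were made.

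Egln enzymes use oxygen, iron and 2-oxoglutarate to hydroxylate prolines in the alpha subunits of the hypoxia-inducible factors (HIFs), Hif1a and Epas1. The hydroxylated subunits are bound by the Vhl ubiquitin ligase and degraded. When oxygen is scarce they persist, pair with Arnt and bind DNA at a short core sequence, ACGTG or GCGTG, near target genes that include those of glycolysis and of vessel growth. Egln1 and Egln3 are themselves HIF targets, and Egln1 is regarded as the main hydroxylase at normal oxygen.

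Egln3 (ENSMUSG00000035105.5) lies on the minus strand of chromosome 12, from 54178981 to 54203860 in GRCm38. GENCODE gives it 1 transcript of 5 exons and 2662 bases, of which 717 are coding, and no other annotated gene overlaps it. With 1 annotated transcript, isoforms could not be compared. The 250 bases before its RefSeq start are shown because Egln3 is a HIF target by background knowledge, with the HIF core sequence in capitals. They are at chr12:54203875-54204124, minus strand, of GRCm38.p6. Beside them are 30 bases of Egln1 around its own ACGTG, at chr8:124949305-124949334, minus strand.

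Egln3: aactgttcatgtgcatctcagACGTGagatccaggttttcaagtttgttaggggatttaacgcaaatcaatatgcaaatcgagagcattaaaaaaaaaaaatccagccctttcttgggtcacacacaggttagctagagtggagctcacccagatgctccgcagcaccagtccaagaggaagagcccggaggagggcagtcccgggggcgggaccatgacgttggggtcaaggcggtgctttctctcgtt

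Egln1: gggccgtggtgtACGTGcagcgcgcgcgga

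The search took ACGTG and GCGTG on both strands. Egln3 held a single ACGTG, 229 bases before the start, and no GCGTG. In the matching window of Egln1, 1 ACGTG began 68 bases and 1 GCGTG began 126 bases before the RefSeq start. GENCODE starts Egln1 further upstream, at 124949324, so by that annotation this ACGTG lies within the transcript. Such matches are common: 16.6% of 32851 RefSeq windows of this length held ACGTG and 38.6% held either core. The windows differed in base composition, with 50.8% G and C in Egln3 and 86.0% in Egln1. A match describes the letters only, and no binding was measured.

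Egln3 was at 70.7 normalised counts in WT 1, 506 in WT 2 and 505 in WT 3. It was at 0 in 5xFAD 1, 5xFAD 2 and 5xFAD 3. The groups did not overlap, and WT 1 stood apart from the other 2 WT libraries. Normalised counts are reads divided by 1 factor per library, and the whole reads behind them could be recovered: 86, 544 and 571 in the WT libraries. The WT mean was 361 ± 251 (SD, n = 3). In bulk libraries such as these, fewer cells that express the gene and less of its RNA per cell cannot be told apart.

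**Figure D1:**
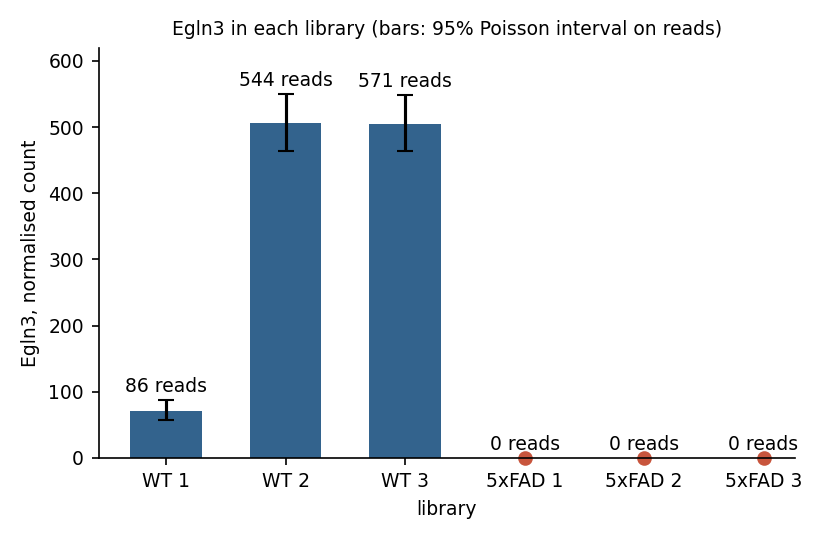
Egln3 in normalised counts (vertical axis) for each of the 6 libraries, WT in blue and 5xFAD in red, with the number of reads above each and the 95% Poisson interval on those reads. WT 2 and WT 3 lie at 506 and 505, WT 1 at 70.7, and the 5xFAD libraries at 0.

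The gap between WT 1 and the other WT libraries was wider than counting error. The 95% Poisson interval of WT 1 ran from 56.5 to 87.3 normalised counts, against 464 to 550 in WT 2 and 465 to 548 in WT 3. WT 2 was 7.16-fold above WT 1, whereas WT 3 and WT 2 differed by less than their counting intervals. Among all 4152 genes tested, WT 1 was at least as far under both other WT libraries for 38 (0.915%). Such intervals cover counting error only, since amplified reads are not independent molecules.

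A count of 0 sets a limit and not an absence. With 3 reads as the floor, Egln3 in a single library was at most 2.49 normalised counts in 5xFAD 1, 3.65 in 5xFAD 2 and 3.98 in 5xFAD 3. With 3 reads over the whole group the limit was 1.08, and the WT mean was 334-fold above that limit. Even WT 1 was 65.5-fold above it. The 334-fold bound covers counting error in 5xFAD only. It takes reads as independent and leaves out the spread between pools. The bound fell to 189 when 5xFAD 1 was left out, because fewer reads then lie behind the floor.

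The table itself restricts which genes can show this pattern. The SD of log2(reads + 1) stayed under 2 within each genotype for all listed genes, and was 1.55 for Egln3 in WT. As a result, wherever 1 of the 5xFAD libraries lacked reads of a gene (163 genes), no other 5xFAD library held more than 14 reads of it. A gene at 0 in 1 5xFAD library and well above that count in another would not be listed. Of the 972 other tested genes with a WT mean within 2-fold of that of Egln3, 13 (1.34%) had no read in any 5xFAD library. By WT mean, Egln3 ranked 9 among the 54 listed genes without 5xFAD reads, and 11 listed genes had no WT reads. The 5xFAD libraries each lacked reads for more of the listed genes (86 to 147) than the WT libraries (25 to 42), and the part of this in the Egln3 difference was not tested.

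Across all genes, 78 were higher and 186 lower in 5xFAD by limma on log2(normalised count + 1) at a Benjamini-Hochberg adjusted p under 0.05, which is 1.88% and 4.48% of those tested, or 6.36% in all. At an unadjusted p under 0.05 there were 677 (16.3%), with 6.70% higher and 9.61% lower. Of the same genes, edgeR called 251 and DESeq2 427 at an adjusted p under 0.05. Egln3 is among the 186, which adds no support because it was chosen for its difference in this same table. The other genes of the pathway below were read from that fit.

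Egln1, the closest listed relative of Egln3, was at 975, 1028 and 523 in WT 1 to WT 3. In 5xFAD 1 to 5xFAD 3 it was at 2139, 509 and 383. The 5xFAD libraries thus held both the highest and the lowest value, and the groups overlapped. Its log2 fold change was -0.11 (95% interval -2.01 to 1.79; limma adjusted p = 0.974), an interval wide enough to hold a change of up to about 2 on the log2 scale either way. The sign of Egln1 turned with edgeR (0.23) and DESeq2 (0.26).

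Hif1a, the alpha subunit that all tissues make, was at 191, 738 and 1066 in the WT libraries. In the 5xFAD libraries it was at 364, 495 and 951. WT 1 was the lowest of the 6, as it was the lowest WT library for Egln3. Hif1a did not pass the test (log2 fold change 0.06, 95% interval -1.90 to 2.02; limma adjusted p = 0.986), and its sign turned when libraries were scaled to the same total (-0.06).

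Epas1, the alpha subunit typical of endothelium, was at 19683, 11066 and 14963 in WT. In 5xFAD it was at 12601, 7805 and 36856. Here 5xFAD 3 was above every WT library and 5xFAD 2 below every one. Epas1 had the narrowest interval of the 4 (log2 fold change 0.05, 95% interval -0.85 to 0.96; limma adjusted p = 0.974), and scaling to the same total gave -0.07. The width of these intervals follows the mean level and takes no account of the gene's own spread.

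Arnt, the partner of both alpha subunits, was at 3923, 1110 and 1347 in WT. It was at 1879, 1116 and 5532 in 5xFAD. As for Epas1, the highest value was in 5xFAD 3. The log2 fold change was 0.33 (95% interval -1.31 to 1.96; limma adjusted p = 0.913). It turned to -0.32 without 5xFAD 3, where Epas1 turned to -0.58.

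Levels of different genes were compared per kilobase of the principal transcript. In WT, Epas1 was at 2762 ± 782 normalised counts per kilobase, Arnt at 788 ± 578, Egln1 at 234 ± 77, Hif1a at 141 ± 94 and Egln3 at 135 ± 94 (SD, n = 3 each). The ranges of Epas1, Arnt and Egln1 did not overlap one another, whereas those of Egln1, Hif1a and Egln3 did. Egln3 per kilobase was 0.0978 times Egln1 in WT 1, 0.665 times in WT 2 and 1.30 times in WT 3. In WT 2 and WT 3, then, both hydroxylases had transcript levels of the same order. In 5xFAD, Egln1 was at 107 to 595 per kilobase and Egln3 had no reads. Amplification that favours one end of a transcript would alter such comparisons, and it was not tested.

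**Figure D2:**
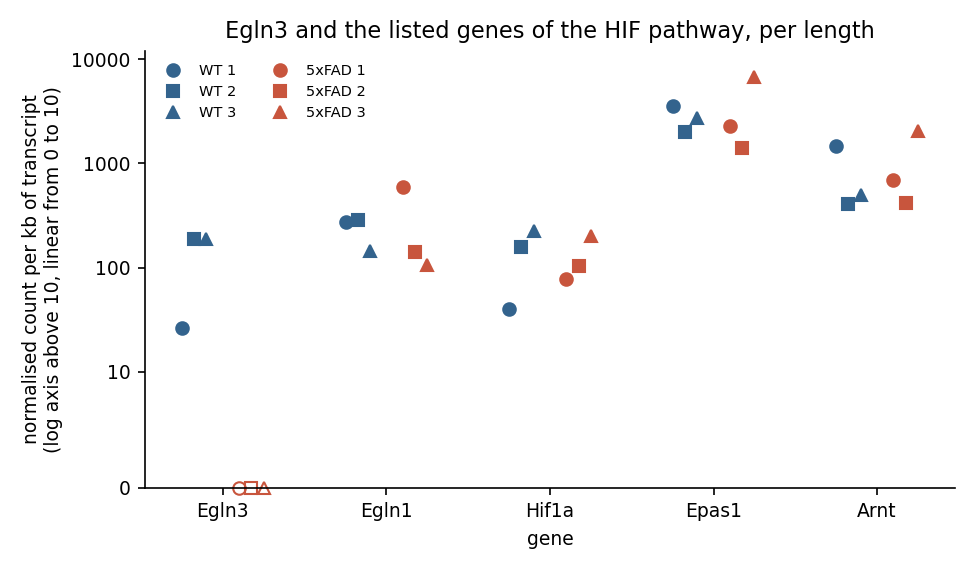
Normalised counts per kilobase of transcript for Egln3 and the 4 listed genes of its pathway (horizontal axis), 1 point per library, WT in blue and 5xFAD in red; the vertical axis is logarithmic above 10 and linear below. Open symbols mark the 5xFAD libraries without Egln3 reads, while the other 4 genes have reads in all 6 libraries and overlapping groups.

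The wider HIF system covers the hydroxylases, the HIF subunits, the Vhl ligase complex, coactivators and chaperones. Of 31 symbols apart from Egln3, older names included, 10 were listed and tested. By limma 0 passed, against 6.36% of all genes tested, and 0 had an unadjusted p under 0.05, against 16.3%. Calls by edgeR and DESeq2 were also 0. In a list of 10 genes, such counts differ little from those shares. The median log2 fold change was 0.06, against -0.02 over all genes tested, with 6 members above 0 and 4 below.

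Groups did not overlap for 2 of the 10, while this held for 18.1% of all genes tested. One was Hsp90ab1, a chaperone that binds HIF alpha subunits, at 16361, 18155 and 13293 in WT and 10884, 6700 and 9008 in 5xFAD (log2 fold change -0.86; limma adjusted p = 0.413). The other was Siah1a, a ubiquitin ligase of the family that targets Egln3 for degradation. Siah1a was at 494, 641 and 717 in WT and at 270, 143 and 325 in 5xFAD (log2 fold change -1.39, 95% interval -3.40 to 0.62; limma adjusted p = 0.569). All 3 5xFAD libraries were thus under the WT libraries in Siah1a, by a difference that did not pass the test. Of the most abundant remaining members, Ep300, a coactivator of HIFs, had a log2 fold change of 0.24, the chaperone Hsp90aa1 of -0.12 and the scaffold Rack1 of 0.34, and each changed sign without 5xFAD 3.

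HIF target genes are the genes whose transcription the factors raise in low oxygen. Of 66 symbols apart from Egln3, 21 were listed and tested, and many classical targets are not among them. By limma 0 passed, against 6.36% of all genes tested, and edgeR and DESeq2 also called 0. At an unadjusted p under 0.05, 1 was higher and 0 lower, against 6.70% and 9.61% of all genes. The median log2 fold change was -0.12, with 9 members above 0 and 12 below.

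Among the most abundant targets, Kdr and Flt1, receptors for vascular endothelial growth factors, had log2 fold changes of -0.46 (95% interval -1.45 to 0.53) and 0.58 (-0.47 to 1.62). Ndrg1, a stress-responsive gene, was at -0.56 and Plod1, a collagen lysyl hydroxylase, at -0.32. Their limma adjusted p-values ran from 0.684 to 0.890.

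Groups did not overlap for 3 targets of 21, again against 18.1% of all genes tested, and these 3 were singled out after their values were seen. Pfkfb3, a regulator of glycolysis in endothelium, was at 222, 85.5 and 16.8 in WT and at 326, 781 and 559 in 5xFAD. Every 5xFAD library was above every WT library. The WT values spread widely, which the interval and p-value below take no account of. Its log2 fold change was 2.90 (95% interval 0.83 to 4.97; limma adjusted p = 0.0768), and it passed only without WT 1 (3.74; limma adjusted p = 0.0439) among the settings tried. Leaving out WT 3 lowered it to 1.91. Eno1, a glycolytic enzyme, was at 830, 410 and 579 in WT and 1597, 1956 and 1896 in 5xFAD (log2 fold change 1.63; limma adjusted p = 0.396). Angpt2, a ligand of the Tek receptor, was at 4980, 7819 and 4851 in WT and 3241, 1889 and 2389 in 5xFAD (log2 fold change -1.23; limma adjusted p = 0.414). Members of this list thus had values on both sides of 0. Ldha and Pgk1, also glycolytic and also picked after their values were seen, had groups that overlapped, with log2 fold changes of 0.12 and 0.51. Other glycolytic members lay below 0, with overlapping groups: Hk1 at -0.98, Pfkp at -1.06 and Gapdh at -0.22.

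Egln3 belongs to the larger class of 2-oxoglutarate dioxygenases, which share its cofactors and include collagen hydroxylases and demethylases of histones and nucleic acids. Of 60 symbols apart from Egln3, 19 were listed and tested; 1 was higher and 1 lower, against 1.88% and 4.48% of all genes tested. Groups did not overlap for these 2 of 19, against 18.1%. At an unadjusted p under 0.05, 1 was higher and 3 were lower (6.70% and 9.61% of all genes); edgeR called 1 higher and 0 lower, and DESeq2 1 higher and 1 lower. The median log2 fold change was -0.18.

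The higher one, Riox2, a ribosomal histidine hydroxylase, was at 0.822, 14.9 and 7.96 in WT. It was at 39.0, 58.4 and 243 in 5xFAD, above all WT libraries. Its log2 fold change was 3.71 (SE 1.06; limma adjusted p = 0.0107). The call was lost without WT 1 (limma adjusted p = 0.192) or without 5xFAD 3 (0.162).

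The lower one, Phf8, a histone demethylase, was at 935, 608 and 459 in WT. It was at 25.7, 248 and 51.7 in 5xFAD, with 5xFAD 2 nearest to WT. Its log2 fold change was -3.18 (SE 1.05; limma adjusted p = 0.0401). With edgeR the adjusted p was 0.127. Without single libraries the call was lost for each except 5xFAD 2, with limma adjusted p-values from 0.0712 to 0.261. The abundant demethylases Jmjd1c, Kdm2a and Kdm5a did not pass, with log2 fold changes of -0.53, 0.85 and 0.16. Kdm6b and Kdm5b, also histone demethylases and named after their values were seen, had log2 fold changes of -2.02 (95% interval -3.78 to -0.25; limma adjusted p = 0.198) and -2.05 (-4.01 to -0.08; limma adjusted p = 0.268), with groups that overlapped.

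**Figure D3:**
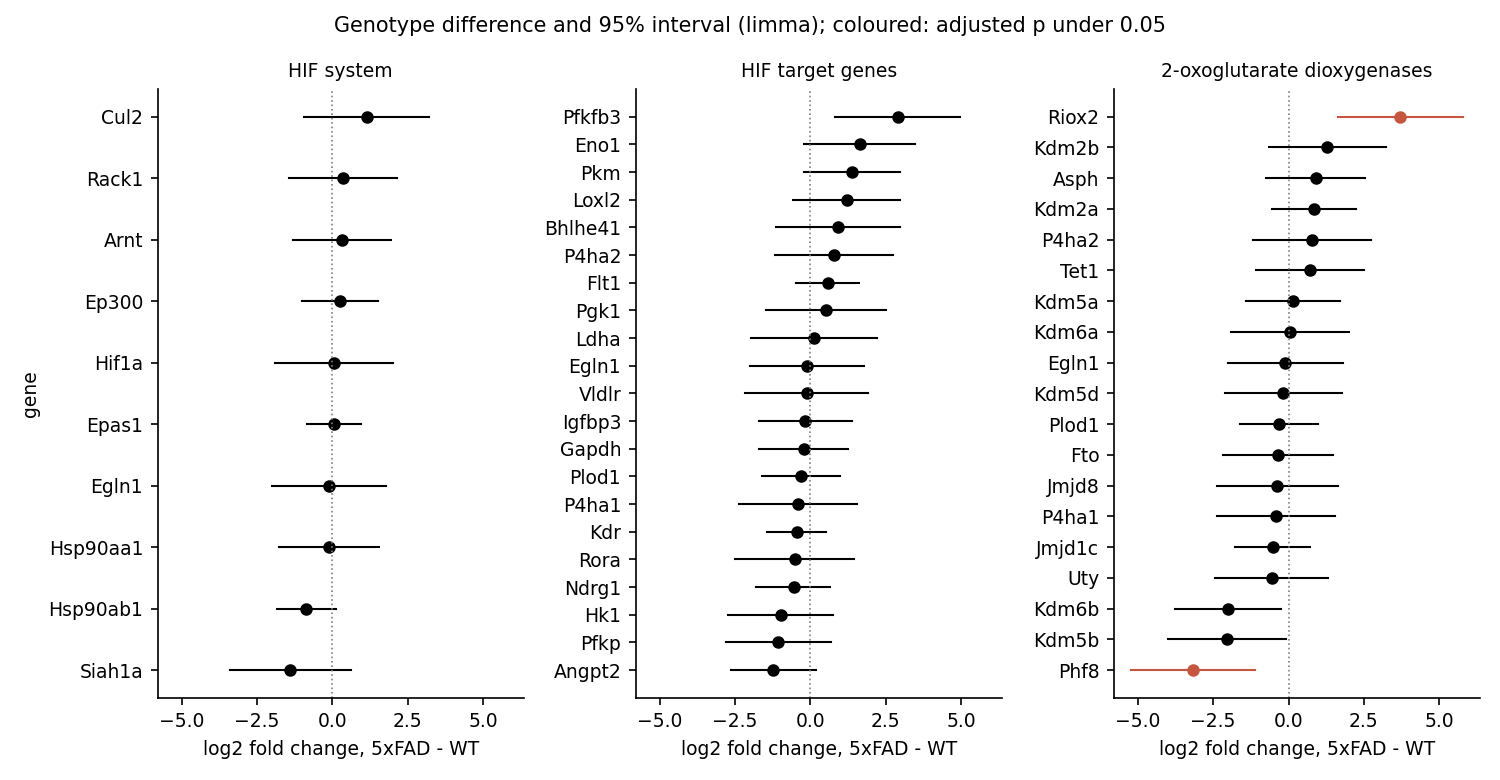
Log2 fold change of 5xFAD against WT (horizontal axis) with its 95% interval for each tested gene of the HIF system, the HIF targets and the 2-oxoglutarate dioxygenases, without Egln3; coloured points have a limma adjusted p under 0.05. Riox2 at 3.71 and Phf8 at -3.18 are the coloured points, and Pfkfb3 at 2.90 is not one.

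Of 9 proteins reported to bind or be modified by Egln3, 4 were listed and tested. By limma 0 passed, against 6.36% of all genes tested, and edgeR and DESeq2 called 0. At an unadjusted p under 0.05, 1 was higher, against 6.70% of all genes. That gene was Atf4, a transcription factor of the stress response, at 398, 352 and 46.0 in WT and 1167, 1453 and 483 in 5xFAD. Its groups did not overlap (log2 fold change 2.32, 95% interval 0.32 to 4.32; limma adjusted p = 0.187). Pkm, a pyruvate kinase, was at 1724, 1001 and 1763 in WT and 10367, 4650 and 1108 in 5xFAD, where 5xFAD 3 fell within the WT range (log2 fold change 1.38; limma adjusted p = 0.414). Kif1b, a kinesin, had a log2 fold change of -0.63 and Siah1a is described above.

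Likeness to Egln3 was measured as Pearson's r of log2(normalised count + 1) over the 6 libraries. Leaving out predicted and unnamed genes, the 8 nearest were Cd8a, B4galt4, Kit, Hmgn3, Timp1, Kcnrg, Rabgef1 and Cdkl2, with r from 0.980 to 0.997. All 8 had no reads in any 5xFAD library, so r was set mostly by the split that also chose Egln3, and the order among them by 3 WT libraries. B4galt4, a galactosyltransferase, was at 170, 660 and 877 in the WT libraries. Timp1, an inhibitor of matrix proteases, was at 254, 487 and 790. WT 1 was the lowest WT library for both, as for Egln3. Among the 54 genes without 5xFAD reads, WT 1 had the fewest reads of the WT libraries for 19 (35.2%). Among all genes tested it was the lowest WT library in normalised counts for 31.6%. These shares rest on different measures, reads and normalised counts, and cannot be compared directly.

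Cd8a and Kit are known from other cells. Cd8a, a coreceptor of T cells, was at 14.0, 52.1 and 81.4 in WT 1 to WT 3, and Kit, a growth factor receptor of mast cells and melanocytes, at 16.4, 74.4 and 128. Both were thus well under Egln3 in WT 2 and WT 3. T cells and mast cells carry CD45, which the sort selected against, and how completely it did so was not tested. Whether melanocytes were among the sorted cells was not tested either. Of 10 leukocyte markers only Mrc1, a mannose receptor that lymphatic endothelium also makes, was listed, at 8243 to 11829 in WT and 8105 to 11310 in 5xFAD. A marker that is not listed is not shown to be absent from the cells. The part of other cells in the Egln3 difference was not tested.

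**Figure D4:**
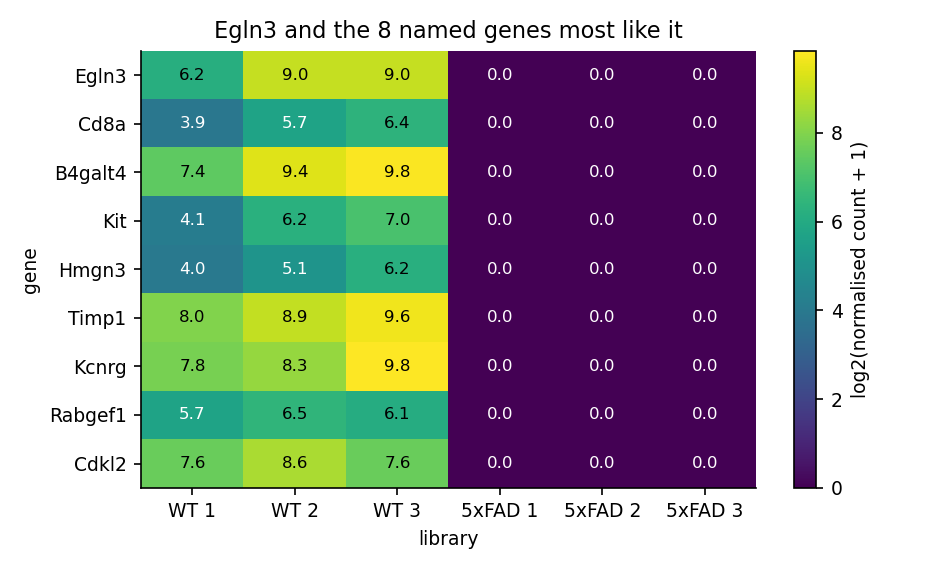
Log2(normalised count + 1) of Egln3 and the 8 named genes with the highest Pearson's r to it (vertical axis) in the 6 libraries (horizontal axis), with each value printed and shown by colour. All 9 genes are at 0 in the 3 5xFAD libraries, and for Egln3 WT 1 is the lowest WT library.

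The nearest listed genes on chromosome 12 did not share the pattern. Eapp, 466.5 kilobases towards higher coordinates, was at 278, 406 and 876 in WT and 2100, 332 and 1254 in 5xFAD. Akap6, 1023.4 kilobases towards lower coordinates, was at 138, 177 and 53.1 in WT and 143, 119 and 91.5 in 5xFAD. Both had reads in all 6 libraries, groups that overlapped, and no call (limma adjusted p = 0.689 and 0.985).

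The sorted cells carried the markers of lymphatic endothelium. All 10 markers of that list had reads in every library, and their summed level ran from 256245 to 295361 normalised counts in WT and from 242064 to 365897 in 5xFAD. By limma 0 passed, against 6.36% of all genes tested, and edgeR and DESeq2 called 0. At an unadjusted p under 0.05 1 was higher, against 6.70% of all genes; it was Nrp2, a coreceptor for VEGF-C, named after its values were seen (log2 fold change 0.99; limma adjusted p = 0.119). Log2 fold changes of the 10 ran from -0.55 to 0.99, and groups overlapped for each. Prox1, Flt4, Lyve1, Pdpn and Ccl21a of this list, and the pan-endothelial Pecam1, lay between -0.25 and 0.28. The 10 pan-endothelial markers, also all listed, summed to 62916 to 101914 in WT and 50969 to 66753 in 5xFAD. Their median log2 fold change was -0.43, with 2 members above 0 and 8 below. Of these 10, 1 was lower by limma, against 4.48% of all genes tested. It was the guidance receptor Robo4 (log2 fold change -2.15, limma adjusted p = 0.0151), which was singled out for that call. For 2 of the 10, Robo4 and Eng (log2 fold change -0.60), the groups did not overlap, against 18.1% of all genes tested. With edgeR 1 was lower too (Robo4, edgeR adjusted p = 0.0337), and DESeq2 called 0. The Robo4 call was lost without WT 2, WT 3 or 5xFAD 3 (limma adjusted p from 0.130 to 0.219), and without 5xFAD 3 its log2 fold change was -1.31. The part of these marker levels in the Egln3 difference was not tested. Of 10 blood endothelial markers 6 were listed, with summed levels of 14102 to 22327 in WT and 18929 to 24623 in 5xFAD. Among these 6, Sox17, an arterial transcription factor singled out after its values were seen, shared the pattern of Egln3. It was at 133, 52.1 and 17.7 in WT and without reads in 5xFAD. Sox17 was the 1 member of the 6 that was lower by limma, against 4.48% of all genes tested (log2 fold change -5.67, limma adjusted p = 3.00e-06). With edgeR and with DESeq2 it was called lower too. These calls add no support, because Sox17 was singled out by the same values and passed the minimum mean of 10 only through WT. Among the WT libraries Sox17 was highest in WT 1, where Egln3 was lowest. Summed levels of the 5 fibroblast markers listed (22781 to 42113 in WT, 23823 to 28580 in 5xFAD) and of the 3 mural markers (1939 to 6478 and 2420 to 4410) overlapped between genotypes.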

How the data were processed

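Each library was RNA from sorted cells, amplified linearly after PicoPure extraction, per the labels' protocols. Per the submitters' processing notes the tools were FastQC, Trimmomatic, Salmon and DESeq2 and the build mm10; settings are not given in the sources used here. The deposited values are a normalised signal, gene counts that the authors divided by 1 factor per library. All values (100%) were whole multiples of the smallest value in their column (within 1e-06), so whole reads were recovered. They summed to 7960827 to 13255050 per library over the listed genes, which is part of each library.

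Genes with a mean of at least 10 (4152 of 4233) were tested with limma 3.58.1 in R 4.3.3 on log2(value + 1), which understates changes of low genes. Its variance prior followed the mean level (infinite prior degrees of freedom), and SE, interval and p took no account of the gene's own spread. All tests were two-sided. The method was also run on simulated counts, made with the same spread setting for every gene and without the spread limit of the table. That run does not measure error rates in these data. Alternatives changed the pseudocount, filter, scaling, prior, replicate block and tool (edgeR 4.0.16, DESeq2 1.42.0), and left out each library.

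Members, lists and rules were chosen with earlier results of these data known. The rule named Egln3, its pathway genes, called members and the 4 most abundant uncalled members of each of the 4 lists, the 8 genes most like Egln3, its neighbours and 6 lymphatic markers. Genes singled out after their values were seen are named as such. Per-kilobase values used the principal transcript of GENCODE M21 (GRCm38, the assembly of mm10). Promoter sequences are from RefSeq (GRCm38.p6), matched by symbol.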

Additional observations from a re-analysis of the deposited data

How the results depend on the processing

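The table covers 3 pools per genotype and only genes within its spread limit, and at levels like that of Egln1 the 95% intervals reached about 2 on the log2 scale to either side. The Egln3 bound was 1003 with a floor of 1 read, and from 189 to 469 with single libraries left out, while the WT mean ran from 288 to 505. Over all genes, requiring a mean of 50 or more, which tests fewer genes, left 49 higher and 116 lower genes, and DESeq2 gave 163 higher (the cause was not tested). Leaving out single libraries gave 54 to 85 higher and 143 to 192 lower. The replicate block gave 80 higher and 190 lower and changed no list count. Deviations from the group means correlated at 0.00247, -0.0157 and -0.0126 between libraries that share a number. Of 6 libraries, 0 were closest to their namesake. These values gave no sign of pairing by number, but with 3 libraries per group they cannot exclude it. No dioxygenase was lower when a mean of 50 or more was required (0) or with edgeR (0). With single libraries left out, 0 to 1 dioxygenases were higher, 0 to 1 lower, and 0 to 1 HIF targets higher; the HIF system and the partners stayed at 0 to 0. Uncalled genes changed sign: Egln1 with edgeR (0.23) and DESeq2 (0.26), Hif1a at equal totals (-0.06), with edgeR (-0.20) and DESeq2 (-0.14), Epas1 at equal totals (-0.07), and Plod1 with edgeR (0.00) and DESeq2 (0.04). At equal totals the median over all genes was -0.14 in place of -0.02. With single libraries left out the log2 fold change ran from -0.87 to 0.37 for Egln1, -0.67 to 0.56 for Hif1a, -0.58 to 0.54 for Epas1, -0.32 to 0.89 for Arnt, -0.09 to 0.51 for Ep300, -0.25 to 0.01 for Hsp90aa1, -0.31 to 1.09 for Rack1, -1.02 to 0.21 for Plod1 and -0.09 to 0.54 for Kdm5a. Of the 8 genes most like Egln3, 5 were among the first 8 with a pseudocount of 5 and 2 by Spearman's rho.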
